A study of Mus musculus with 6 samples.

Results

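The cells described here are bone marrow progenitors at the step between the common lymphoid progenitor and the early pro-B cell, taken from single-cell RNA sequencing of sorted mouse marrow by the transcripts they held. Barcodes with at least 500 genes, at least 1000 unique molecular identifiers (UMIs, 1 for each captured transcript) and at most 10% mitochondrially encoded UMIs were considered. Those with at least 1 UMI of Dntt and at least 2 UMIs of Ebf1 and Rag1 together were kept, unless they held over 1 UMI of Siglech, a plasmacytoid dendritic cell gene, or over 2 of Cd3d, Cd3e and Cd3g, which mark T cells. This gave 1354 of 44399 barcodes, called gated progenitors below. They number 34, 147 and 81 in Txnip-KO 1, 2 and 3, and 323, 353 and 416 in WT 1, 2 and 3. The members were thus chosen by the UMIs of these 7 genes, so the levels of those genes and the numbers of cells are given as descriptions, with no test.

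The series compares 3 marrow samples of mice whose Txnip gene was knocked out (Txnip-KO) with 3 wild-type samples (WT). Its product belongs to the arrestins, holds thioredoxin in check and restrains the uptake of glucose. The labels give neither the strain, age or sex of the mice, nor the deleted part of the gene, nor the surface markers used for sorting. Nothing in them states that each sample was a different animal. The p-values thus reflect the spread among samples alone, and part of it may be technical.

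Common lymphoid progenitors arise in the marrow from multipotent progenitors that carry the receptors Flt3 and Il7r. The B-lineage programme is opened by the transcription factors Tcf3, Ebf1 and Foxo1 and is then fixed by Pax5. The recombinase made of Rag1 and Rag2 cuts the heavy chain gene segments, and Dntt adds bases at the joins. The surrogate light chain proteins Vpreb1, Vpreb2 and Igll1 pair with the first heavy chain to form the pre-B receptor, before any conventional light chain is made. Signals from Il7r drive growth at this stage, and loss of such signals raises death factors of the Bcl2 family.

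The 2 pairs of sequences shown next belong to genes the results turn on. The first is that of Arrdc4 and Klf11, which rose in Txnip-KO and belong to the list of MondoA regulators and targets; MondoA is a sugar-sensing transcription factor that also controls Txnip and binds elements built from CACGTG. The 250 bases before each start site are given 5′ to 3′ (RefSeq, GRCm38.p6), with CACGTG in capitals. This motif reads the same on both strands and occurs in 1978 of 32851 promoter windows of this length (6.02%).
Arrdc4 (chr7:68749239-68749488, minus strand): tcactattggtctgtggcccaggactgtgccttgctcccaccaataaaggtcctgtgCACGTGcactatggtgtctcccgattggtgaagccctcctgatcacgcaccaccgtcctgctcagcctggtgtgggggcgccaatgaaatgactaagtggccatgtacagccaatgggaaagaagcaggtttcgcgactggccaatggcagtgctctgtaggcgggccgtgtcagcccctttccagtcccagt
Klf11 (chr12:24651121-24651370, plus strand): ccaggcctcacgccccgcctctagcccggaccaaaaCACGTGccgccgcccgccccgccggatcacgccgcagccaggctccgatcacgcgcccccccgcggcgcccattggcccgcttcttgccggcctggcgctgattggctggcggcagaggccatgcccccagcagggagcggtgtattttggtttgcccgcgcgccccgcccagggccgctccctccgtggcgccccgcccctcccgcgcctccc

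Of the 11 genes on that list, 9 matched the RefSeq table and 5 held the motif in this window (Arrdc4, Klf11, Mlx, Mlxipl and Pfkfb3). Txnip itself did not hold it there, nor did Mlxip, Pdk4 or Pklr. A match describes the letters and is not a measured binding site. The second pair is that of Vpreb1 and Vpreb2, near-identical surrogate light chain genes whose counts moved differently. Their windows, from the same table, share a run of 91 bases, shown in capitals. Over the 106 bases in which the windows overlap when this run is aligned, 104 are identical (98.1%).
Vpreb1 (chr16:16869256-16869505, minus strand): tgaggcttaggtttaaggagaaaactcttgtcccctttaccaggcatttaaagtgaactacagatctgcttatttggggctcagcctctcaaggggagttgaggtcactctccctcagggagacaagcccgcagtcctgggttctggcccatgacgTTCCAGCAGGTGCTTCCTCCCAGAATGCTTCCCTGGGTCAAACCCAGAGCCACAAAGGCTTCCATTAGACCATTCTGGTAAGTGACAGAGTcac
Vpreb2 (chr16:17980315-17980564, plus strand): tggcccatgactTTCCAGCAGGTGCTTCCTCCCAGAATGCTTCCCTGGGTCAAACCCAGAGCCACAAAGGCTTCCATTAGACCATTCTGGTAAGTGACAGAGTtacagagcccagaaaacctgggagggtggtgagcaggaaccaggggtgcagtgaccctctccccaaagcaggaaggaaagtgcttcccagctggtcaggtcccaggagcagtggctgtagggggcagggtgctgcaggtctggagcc

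The gated progenitors carried the genes of early B-lineage cells that the rule did not read. In levels scaled by total UMIs (CPM, UMIs of a gene per 1000000 UMIs), Myl10, a myosin light chain gene that marked these cells in this series, averaged 437 CPM in Txnip-KO and 676 CPM in WT gated progenitors. In the Dntt-positive cells without a UMI of Ebf1 or Rag1 it averaged 39.7 CPM in Txnip-KO and 46.4 CPM in WT, and in all other barcodes 16.5 and 20.9 CPM. Ly6d, a surface marker of lymphoid progenitors bound for the B lineage, stood at 1240 CPM in Txnip-KO and 1150 CPM in WT gated progenitors, against 32.1 and 43.8 CPM in the Dntt-positive cells. Il7r was at 507 CPM in Txnip-KO and 418 CPM in WT, the signalling chain Cd79a at 549 and 506 CPM, and the adaptor Blnk at 200.3 and 205 CPM. All 3 were lower in the Dntt-positive cells, where Cd79a averaged 1.17 CPM in Txnip-KO and 0.972 CPM in WT. Flt3 was at 305 CPM in Txnip-KO and 244 CPM in WT gated progenitors, close to its 287 and 209 CPM in the Dntt-positive cells. Cd34, a progenitor surface protein, was lower in the gated progenitors, at 189 CPM in Txnip-KO and 134 CPM in WT, than in the Dntt-positive cells, at 488 and 428 CPM.

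By these marker levels, summed over cells, the gated progenitors as a whole match the name of common lymphoid and early pro-B progenitors, with an exception described next. The number of cells that carried each marker was not counted.

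A small number of gated cells carried light chain transcripts, which belong to later B cells. With at least 5 UMIs of Igkc, Iglc1, Iglc2 and Iglc3 together, they made up 9 of 34 cells in Txnip-KO 1 (26.5%), 3 of 147 in Txnip-KO 2 (2.04%) and 10 of 81 in Txnip-KO 3 (12.3%). In WT 1, 2 and 3 they were 7, 3 and 6 cells (2.17%, 0.8499% and 1.44%). Txnip-KO 1 and 3 stand apart from the other 4 samples. Of the cells of this kind, 8, 3 and 8 in Txnip-KO 1, 2 and 3 held a single Dntt UMI, and 4, 1 and 0 in WT 1, 2 and 3. The median gated progenitor without light chain transcripts held 18, 25 and 24 Dntt UMIs in Txnip-KO 1, 2 and 3, and 34.5, 30 and 30 in WT 1, 2 and 3. A doublet caller marked 3, 1 and 5 of the cells with light chain transcripts in Txnip-KO 1, 2 and 3, and 2, 1 and 5 in WT 1, 2 and 3. The summed level of 13 later B and plasma cell genes was 2490.8, 317 and 979 CPM in Txnip-KO 1, 2 and 3, against 357, 261 and 369 CPM in WT 1, 2 and 3. Results that rest on these cells are given with and without them, an alternative chosen after they were seen.

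Depth differed between the groups. The gated progenitors held 309537 to 1547221 UMIs per sample in Txnip-KO and 4141340 to 5509824 in WT. The median cell had 8597 ± 256 UMIs in Txnip-KO and 11527 ± 495 in WT (mean of sample medians ± SD, n = 3 each). A doublet caller, whose calls were kept in the cells and removed as an alternative, marked 14.3 to 17.6% of the gated progenitors in Txnip-KO samples and 9.07 to 10.3% in WT samples. Over all filtered barcodes it marked 356 of 6379, 612 of 8439 and 579 of 8234 in Txnip-KO 1, 2 and 3. In WT 1, 2 and 3 it marked 379 of 6569, 489 of 7509 and 471 of 7269. These totals were set in advance from the number of barcodes. Over all library pairs 188 barcodes occurred in 2 libraries, 1 of them among the gated progenitors. Txnip itself had 3, 15 and 1 UMIs in the gated progenitors of Txnip-KO 1, 2 and 3, and 657, 456 and 793 UMIs in those of WT 1, 2 and 3. Txnip was thus low in every Txnip-KO sample, as the labels state (log2 fold change -4.35, SE 0.30; Benjamini-Hochberg adjusted p = 3.98e-07 from edgeR's quasi-likelihood test).

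Gated progenitors were a smaller share of the marrow barcodes in Txnip-KO than in WT. They made up 0.533%, 1.74% and 0.984% of the filtered barcodes of Txnip-KO 1, 2 and 3, and 4.92%, 4.70% and 5.72% of those of WT 1, 2 and 3. The means were 1.09% ± 0.611 in Txnip-KO and 5.11% ± 0.539 in WT (SD, n = 3 each), a ratio of -2.24 on the log2 scale. The highest Txnip-KO sample lay below the lowest WT sample. Without the cells carrying light chain transcripts the means were 0.987% in Txnip-KO and 5.04% in WT. Among barcodes of at least 3000 UMIs, each thinned to 3000 before gating, they were 0.789% and 4.10%. The barcodes under 3000 UMIs, from 787 in WT 1 to 1411 in Txnip-KO 3, were left out of this share. A gate on Myl10 alone, with at least 2 UMIs in place of Dntt, Ebf1 and Rag1, gave 3.08% ± 1.32 in Txnip-KO and 7.69% ± 0.452 in WT, again without overlap. In barcodes with at least 2 UMIs of Klf1, an erythroid factor, the main gate on Dntt, Ebf1 and Rag1 passed 0.168% ± 0.188 in Txnip-KO and 0.462% ± 0.178 in WT. Their median depths were 13786 and 16313 UMIs.

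The Dntt-positive cells outside the gate were compared in the same way. Dntt-positive cells without a UMI of Ebf1 or Rag1 made up 12.1%, 18.4% and 16.4% of the barcodes of Txnip-KO 1, 2 and 3, and 13.1%, 13.0% and 14.6% of those of WT 1, 2 and 3. These ranges overlapped (means 15.6% ± 3.19 and 13.6% ± 0.893). Free RNA can add to such a count: a Dntt UMI was present in 6.64% ± 2.87 of the Klf1-marked barcodes in Txnip-KO and 3.87% ± 1.18 in WT, against 22.2% and 24.9% of all filtered barcodes.

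Among Dntt-positive cells, those with many UMIs of Ebf1 and Rag1 were a smaller share in Txnip-KO than in WT. Cells with 10 or more UMIs of the pair were 2.07%, 3.03% and 2.16% of the Dntt-positive cells in Txnip-KO 1, 2 and 3, and 15.5%, 15.3% and 14.8% in WT 1, 2 and 3. Cells with 1 such UMI were 2.68% in Txnip-KO and 4.30% in WT, cells with 2 or 3 were 1.75% and 4.46%, and cells with 4 to 9 were 1.83% and 6.52%. The order of the steps depended on depth. In cells of at least 3000 UMIs, thinned to 3000, 1 such UMI was found in 2.55% of Dntt-positive cells in Txnip-KO and 7.22% in WT. Those with 2 or 3 were 2.41% and 7.58%, those with 4 to 9 were 1.58% and 11.8%, and those with 10 or more were 1.06% and 3.49%. At equal depth the means were thus lower in Txnip-KO at every step, and farthest apart at 4 to 9 UMIs.

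**Figure D1:**
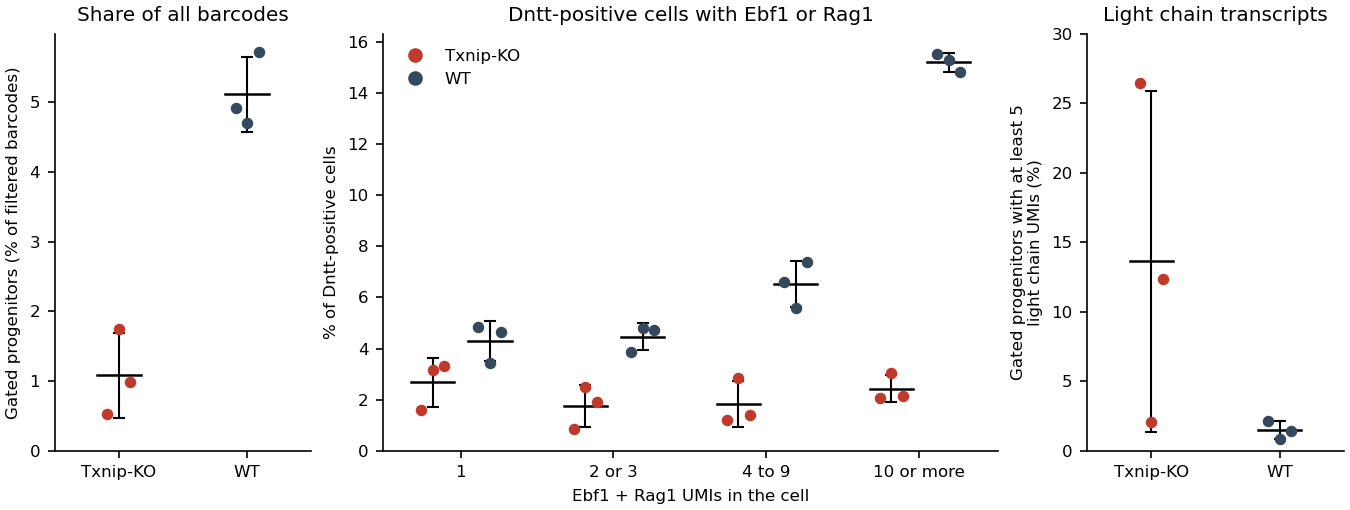
Numbers of gated progenitors. Left, their share of filtered barcodes (%) in each sample; middle, the share of Dntt-positive cells (%) by UMIs of Ebf1 and Rag1 in the cell; right, gated progenitors with at least 5 light chain UMIs (%). Points are samples, lines are means and bars are SD (n = 3 each). All 3 Txnip-KO samples lie below all 3 WT samples on the left and at 10 or more UMIs, and Txnip-KO 1 and 3 stand high on the right.

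The gated progenitors that were found in Txnip-KO also differed in which of the 2 gate genes they showed. Cells with Ebf1 but no Rag1 UMI made up 47.1%, 30.6% and 49.4% of the gated progenitors of Txnip-KO 1, 2 and 3 (42.4% ± 10.2), against 18.5% ± 2.48 in WT. Cells with both were 49.5% ± 13.6 in Txnip-KO and 76.3% ± 1.78 in WT, and cells with Rag1 alone 8.14% and 5.18%. Without the cells carrying light chain transcripts, Ebf1 alone was found in 34.3% in Txnip-KO and 17.99% in WT. The deeper WT cells have more chances to show both genes, and the part of depth in these shares was not tested.

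At the edge of the rule, cells just inside (Ebf1 and Rag1 together at 2) and just outside (at 1) differed gradually. Ly6d was at 673 CPM in Txnip-KO and 595 CPM in WT just inside, and at 264 and 330 CPM just outside. Blnk was at 125.4 and 99.0 CPM inside, and at 49.2 and 65.5 CPM outside. Dntt was close on both sides, at 2619 CPM in Txnip-KO and 2926 CPM in WT inside, and at 2159.5 and 2526 CPM outside. Within the gate, Myl10 was higher where both genes were seen (577 CPM in Txnip-KO and 744 CPM in WT) than with Ebf1 alone (341 and 501 CPM) or Rag1 alone (91.9 and 249 CPM).

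The genotypes were next compared within the gate. UMIs were summed per sample over the gated progenitors and tested with edgeR's quasi-likelihood test. From here on, levels in gated progenitors are CPM after TMM scaling, which evens out the composition of the samples, fold changes are log2 of Txnip-KO over WT, and p-values are adjusted by the Benjamini-Hochberg method over all 10103 genes tested. In all 1980 genes passed the threshold of 0.05 (19.6%), 887 higher (8.78%) and 1093 lower (10.8%) in Txnip-KO, and the median over all genes was 0.01. Of all genes tested, 38.7% had groups that did not overlap. Without the cells carrying light chain transcripts 1894 genes passed, of which 1764 were among the 1980 with the same direction. Leaving out WT 3 left 1014, leaving out Txnip-KO 2 left 1296, and thinning every cell to 1000 UMIs left 190 of 3515.

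Arrdc4, an alpha-arrestin gene related to Txnip, was among the largest rises. It stood at 32.9, 40.1 and 48.3 CPM in Txnip-KO 1, 2 and 3, and at 1.496, 1.97 and 3.87 CPM in WT 1, 2 and 3. Every Txnip-KO sample lay above every WT sample (log2 fold change 4.003, SE 0.30; adjusted p = 5.76e-07, edgeR quasi-likelihood test). Klf11, a Krüppel-like factor, was at 11.97, 10.03 and 22.9 CPM in Txnip-KO against 1.99, 0.246 and 1.35 CPM in WT (3.52, SE 0.53). Its relative Klf10 was at 50.9, 53.3 and 69.9 CPM in Txnip-KO and 13.7, 8.85 and 11.03 CPM in WT (2.38, SE 0.20). Of the MondoA list, 4 of 7 tested genes rose and 1, Txnip, fell, with a median of 0.995. Of the Txnip and arrestin family list 2 of 7 rose, Arrdc4 and Arrb2 (0.56), and 1 fell; Arrb2 lost its call without Txnip-KO 2 (0.39), WT 1 (0.51) or WT 3 (0.53).

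Regulators of death and growth were also among the largest rises. Bmf, a death factor of the Bcl2 family, stood at 41.9, 21.3 and 25.4 CPM in Txnip-KO 1, 2 and 3, and at 2.74, 3.93 and 3.87 CPM in WT (2.85, SE 0.31; adjusted p = 3.47e-05, edgeR quasi-likelihood test). Ddit4, which inhibits mTORC1, was at 132, 98.4 and 44.5 CPM in Txnip-KO and 7.48, 15.2 and 24.4 CPM in WT (2.41, SE 0.33). For both genes the groups did not overlap. Klf9, a Krüppel-like factor induced by glucocorticoids, stood at 23.9, 28.8 and 17.8 CPM in Txnip-KO and 3.49, 5.16 and 3.87 CPM in WT (2.55, SE 0.29). Acot1, an acyl-CoA thioesterase, was at 35.9, 59.6 and 77.5 CPM in Txnip-KO and 8.48, 8.61 and 7.93 CPM in WT (2.88, SE 0.21). Nav2 (2.74, SE 0.44), Sytl3 (2.55, SE 0.36) and the receptor gene Lifr (2.43, SE 0.51) complete the rises outside the later B genes.

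The other 3 of the 12 largest rises were genes of later B cells. Igkc, the kappa light chain, stood at 1353, 69.6 and 529 CPM in Txnip-KO 1, 2 and 3, and at 41.6, 20.4 and 25.3 CPM in WT (4.28, SE 0.64; adjusted p = 0.000483, edgeR quasi-likelihood test). Iglc2, a lambda light chain, had a fold change of 5.71 (SE 0.87) and Ms4a1, which encodes the B-cell antigen CD20, one of 4.28 (SE 0.71). Their levels follow the cells carrying light chain transcripts: those cells were 26.5%, 2.04% and 12.3% of the gated progenitors of Txnip-KO 1, 2 and 3. Without them Igkc was at 2.38 (adjusted p = 0.000675, edgeR quasi-likelihood test), and Iglc2 and Ms4a1 were too low to be tested. The cells were removed by their own UMIs of Igkc and the lambda genes. The remaining Igkc values were thus cut by that choice, and this test cannot show a difference apart from it.

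Among the falls, Sdf2l1, a chaperone of the endoplasmic reticulum, stood at 5.99, 8.15 and 8.90 CPM in Txnip-KO 1, 2 and 3, and at 39.1, 47.5 and 48.5 CPM in WT (-2.47, SE 0.25; adjusted p = 1.39e-05, edgeR quasi-likelihood test). Lars2, the mitochondrial leucyl-tRNA synthetase, was at 126, 84.6 and 80.1 CPM in Txnip-KO and 490.5, 407 and 454 CPM in WT (-2.32, SE 0.14). Oxct1, which lets cells burn ketone bodies, was at 5.99, 18.8 and 16.5 CPM in Txnip-KO and 67.8, 75.0 and 65.0 CPM in WT (-2.07, SE 0.20). In all 3 genes the highest Txnip-KO sample was far below the lowest WT sample. The hexokinase Hk2 was at 5.99, 5.64 and 5.08 CPM in Txnip-KO and 13.7, 16.7 and 16.4 CPM in WT (-1.497, SE 0.31). A level of 5.99 CPM in Txnip-KO 1, as in Sdf2l1, Oxct1 and Hk2, is 2 UMIs from 34 cells. The Hk2 levels of Txnip-KO 2 and 3 also rest on few UMIs. The linker histone H1f5 (-1.56), Nutf2-ps1 (-1.75), Tmem97 (-1.53), the pyrophosphatase Ppa1 (-1.52) and B3galt6 (-1.501) also fell. Nutf2-ps1 is a pseudogene whose reads may belong to its parent gene. In cells with few or no cell cycle UMIs H1f5 was at 0.58 and not called, and B3galt6 lost its call without Txnip-KO 2 (-1.17).

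The basophil proteases Prss34 (-4.78, SE 0.995) and Mcpt8 (-4.58, SE 0.86) had the largest falls, on few UMIs. Mcpt8 had 2, 2 and 1 UMIs in the gated progenitors of Txnip-KO 1, 2 and 3, and 59, 215 and 340 in those of WT 1, 2 and 3, of which 114 of the last lay in the 6 cells with light chain transcripts. In all other barcodes Mcpt8, scaled by total UMIs, was at 91.9 CPM in Txnip-KO and 562 CPM in WT. Its level outside the gate thus moved with its level inside, and the part of free RNA in these falls was not tested. Both lost their call when cells were gated after thinning to 3000 UMIs (Mcpt8 at -2.43), and Prss34 also without Txnip-KO 2 (-3.88).

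**Figure D2:**
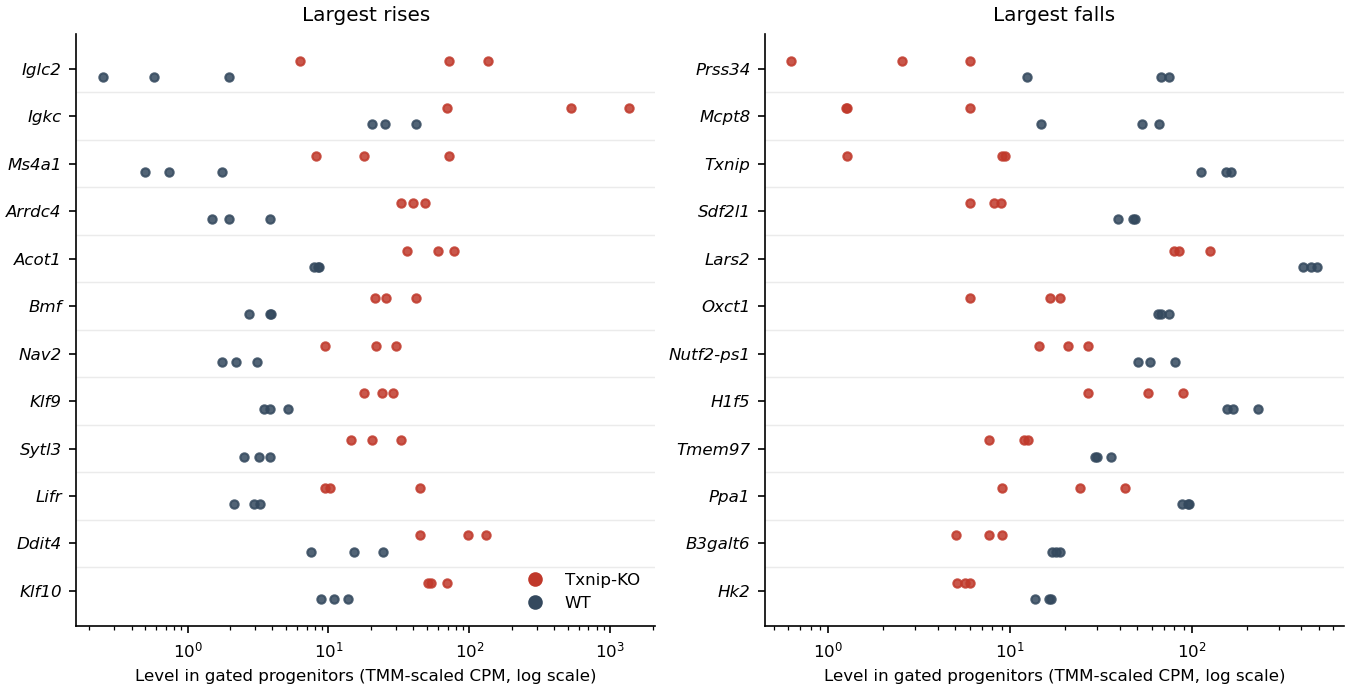
The 12 largest rises (left) and 12 largest falls (right) among the genes that passed the test, by TMM-scaled CPM in the gated progenitors (log axis). Each point is 1 sample, Txnip-KO drawn above WT in each row. For every gene shown the Txnip-KO and WT samples do not overlap, which the choice of genes required, and Igkc, Iglc2 and Ms4a1 are higher in Txnip-KO 1 and 3 than in Txnip-KO 2.

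The B-lineage genes were read by role, with the genes of the rule left out of the counts. Beside these counts, 8.78% of all genes tested rose and 10.8% fell. Among 33 transcription factors, 10 rose and 0 fell, with a median of 0.37. Ikzf2, which encodes the Ikaros-family protein Helios, stood at 53.9, 68.3 and 57.2 CPM in Txnip-KO 1, 2 and 3, and at 20.4, 21.1 and 20.7 CPM in WT (1.58, SE 0.16; adjusted p = 1.39e-05, edgeR quasi-likelihood test). Tcf4, an E protein, was at 428, 396 and 367 CPM in Txnip-KO and 262, 254 and 222 CPM in WT (0.68, SE 0.11). Runx1, needed for blood and early B cells, was at 177, 176 and 175 CPM in Txnip-KO and 128, 113 and 103 CPM in WT (0.62, SE 0.12). These 3, with Tcf12 (0.67) and Ets1 (0.58), passed with any 1 sample left out. Erg (0.53 then) and Bcl11a (0.39 then) lost their call without WT 3. Notch1 (0.36), Pou2f1 (0.65) and Spib (2.04, groups overlapping) each lost it without WT 3 and without at least 1 other sample. Spib stood at 35.9, 5.64 and 22.9 CPM in Txnip-KO 1, 2 and 3, in the order of their shares of light chain cells. Its difference against all other barcodes (3.10) was -7.57 and not called without those cells.

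The core B-lineage factors were not called. Pax5 was at 129, 44.5 and 58.5 CPM in Txnip-KO 1, 2 and 3, and at 60.3, 48.4 and 42.9 CPM in WT (0.30, SE 0.24; adjusted p = 0.423, edgeR quasi-likelihood test). Foxo1 was at -0.28 (SE 0.19), Tcf3 at 0.16 (SE 0.12), Ikzf1 at 0.20 (SE 0.11) and Mef2c at 0.10 (SE 0.10). Ebf1, which the rule read, was at 1420, 769 and 991 CPM in Txnip-KO and 1030, 968 and 1020 CPM in WT. The Txnip-KO samples that remained inside the gate thus held Ebf1 on both sides of the WT samples. Without the light chain cells 9 of 31 factors rose and 1 fell, beside 869 and 1025 of all 10124 genes tested. Without Txnip-KO 1, 9 of 33 rose, beside 847 of all 10906 genes.

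Of 13 recombination and repair genes, 0 rose and 3 fell, with a median of -0.12. Rag2, the partner of Rag1, stood at 59.9, 65.8 and 75.0 CPM in Txnip-KO 1, 2 and 3, and at 72.3, 76.2 and 72.1 CPM in WT, an overlap with no call (-0.12, SE 0.12). Hmgb2 (-0.65) and Hmgb1 (-0.33), chromatin proteins that help the recombinase bind, and the DNA damage kinase Atm (-0.64) fell. Hmgb2 lost its call without WT 3 (-0.59), Hmgb1 without Txnip-KO 3 (-0.30), WT 1 (-0.29) or WT 3 (-0.30), and Atm without Txnip-KO 2 (-0.66) or WT 2 (-0.60). In cells with few or no cell cycle UMIs Hmgb2 was at 0.20 and not called. Dntt, read by the rule, was at 1625, 2464 and 2386 CPM in Txnip-KO and 3094, 2756 and 2796 CPM in WT.

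The pre-B receptor and its signalling genes went both ways, with 3 of 17 higher and 2 lower. Vpreb2 stood at 77.8, 112 and 78.8 CPM in Txnip-KO 1, 2 and 3, and at 210.4, 170.4 and 188 CPM in WT (-0.998, SE 0.14; adjusted p = 0.000381, edgeR quasi-likelihood test). Vpreb1 was at 266, 104 and 92.8 CPM in Txnip-KO and 126, 98.9 and 85.7 CPM in WT, without a call (0.33, SE 0.25). Reads of these near-identical genes can be assigned to either, so each count is uncertain. Igll1, their partner, was at 165, 69.0 and 55.9 CPM in Txnip-KO and 60.1, 41.8 and 50.1 CPM in WT (0.66, SE 0.24; adjusted p = 0.0632, edgeR quasi-likelihood test). For Vpreb1 and Igll1 the high value was that of Txnip-KO 1. Vpreb2 was at -0.34 and not called when the gate read Rag1 without Ebf1.

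Downstream of the receptor, Btk, a kinase needed for B-cell maturation, stood at 83.8, 69.6 and 71.2 CPM in Txnip-KO 1, 2 and 3, and at 100.2, 108 and 99.6 CPM in WT (-0.50, SE 0.12). Syk, the kinase that acts first, was at 198, 122 and 118 CPM in Txnip-KO and 94.3, 91.5 and 90.1 CPM in WT (0.55, SE 0.14). Neither pair of groups overlapped. Btk lost its call without Txnip-KO 2 (-0.47) or WT 2 (-0.46), and Syk without WT 3 (0.56). The other rises were Ms4a1 and Fcrla, both B-cell genes that follow the light chain cells. Without those cells 1 of 15 genes of this list rose, 3 fell, and the median was -0.09 in place of 0.26. Of all 10124 genes tested without them, 869 rose and 1025 fell.

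Of 19 cytokine and homing receptors, 5 rose and 0 fell, with a median of 0.19. Itga4, an integrin chain that holds progenitors in the marrow, stood at 428, 316 and 271 CPM in Txnip-KO 1, 2 and 3, and at 209.7, 233 and 205 CPM in WT (0.60, SE 0.13). Cxcr4, the receptor for the marrow chemokine Cxcl12, was at 198, 132 and 116 CPM in Txnip-KO and 57.6, 83.4 and 103 CPM in WT (0.76, SE 0.20). Il6ra, the interleukin-6 receptor, was at 15.0, 16.9 and 19.1 CPM in Txnip-KO and 5.49, 6.89 and 8.70 CPM in WT (1.27, SE 0.29). All 3 separated the groups, though Cxcr4 lost its call without Txnip-KO 2 (0.79). Kit (0.64, groups overlapping) and Il2rg (0.48), the chain shared by several cytokine receptors, also rose and lost their call without Txnip-KO 2 (0.37 and 0.48).

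Il7r, whose signal early B cells need, was not called. It stood at 446, 618 and 400.4 CPM in Txnip-KO 1, 2 and 3, and at 434, 473 and 406 CPM in WT, with overlap (0.19, SE 0.14; adjusted p = 0.357, edgeR quasi-likelihood test). Flt3 was at 299, 277 and 306 CPM in Txnip-KO and 250.3, 256 and 262 CPM in WT (0.19, SE 0.10), also without a call.

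Of 19 genes of interleukin-7 signalling and survival, 3 rose and 1 fell, where 19.6% of all genes tested were called in either direction. Beside Bmf, Bcl2l11, which encodes the death factor Bim, stood at 47.9, 42.6 and 44.5 CPM in Txnip-KO 1, 2 and 3, and at 21.4, 17.2 and 23.6 CPM in WT (1.07, SE 0.18; adjusted p = 0.000993, edgeR quasi-likelihood test). Its groups did not overlap. Bmf and Bcl2l11 passed with any 1 sample left out. Stat5b, which carries the Il7r signal, rose (0.59) and lost its call without Txnip-KO 2 (0.39) or WT 3 (0.56). The survival genes Bcl2 (0.29, SE 0.13), Mcl1 (0.10, SE 0.14) and Bcl2l1 (-0.64, SE 0.40) were not called.

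Myc, the growth regulator, was the 1 fall in this list. It stood at 89.8, 107 and 168 CPM in Txnip-KO 1, 2 and 3, and at 182, 221 and 245 CPM in WT (-0.80, SE 0.17; adjusted p = 0.00418, edgeR quasi-likelihood test). The groups did not overlap, and the call held with any 1 sample left out.

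Of 18 surface antigens, 4 rose and 2 fell. Bst1, which early B cells carry, stood at 26.9, 15.0 and 21.6 CPM in Txnip-KO 1, 2 and 3, and at 5.98, 5.90 and 7.54 CPM in WT (1.52, SE 0.29). Ptprc, the common leukocyte antigen, was at 488, 286 and 301 CPM in Txnip-KO and 201, 215 and 185 CPM in WT (0.76, SE 0.15). Both passed with any 1 sample left out. Ly6a (0.65), which encodes Sca-1, and Cd34 (0.43) rose, and Cd24a (-0.36) and Ptprcap (-0.38) fell. Ly6a lost its call without Txnip-KO 3 (0.51), and the other 3 lost theirs without each of several samples. Ly6d was not called (0.00, SE 0.12).

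**Figure D3:**
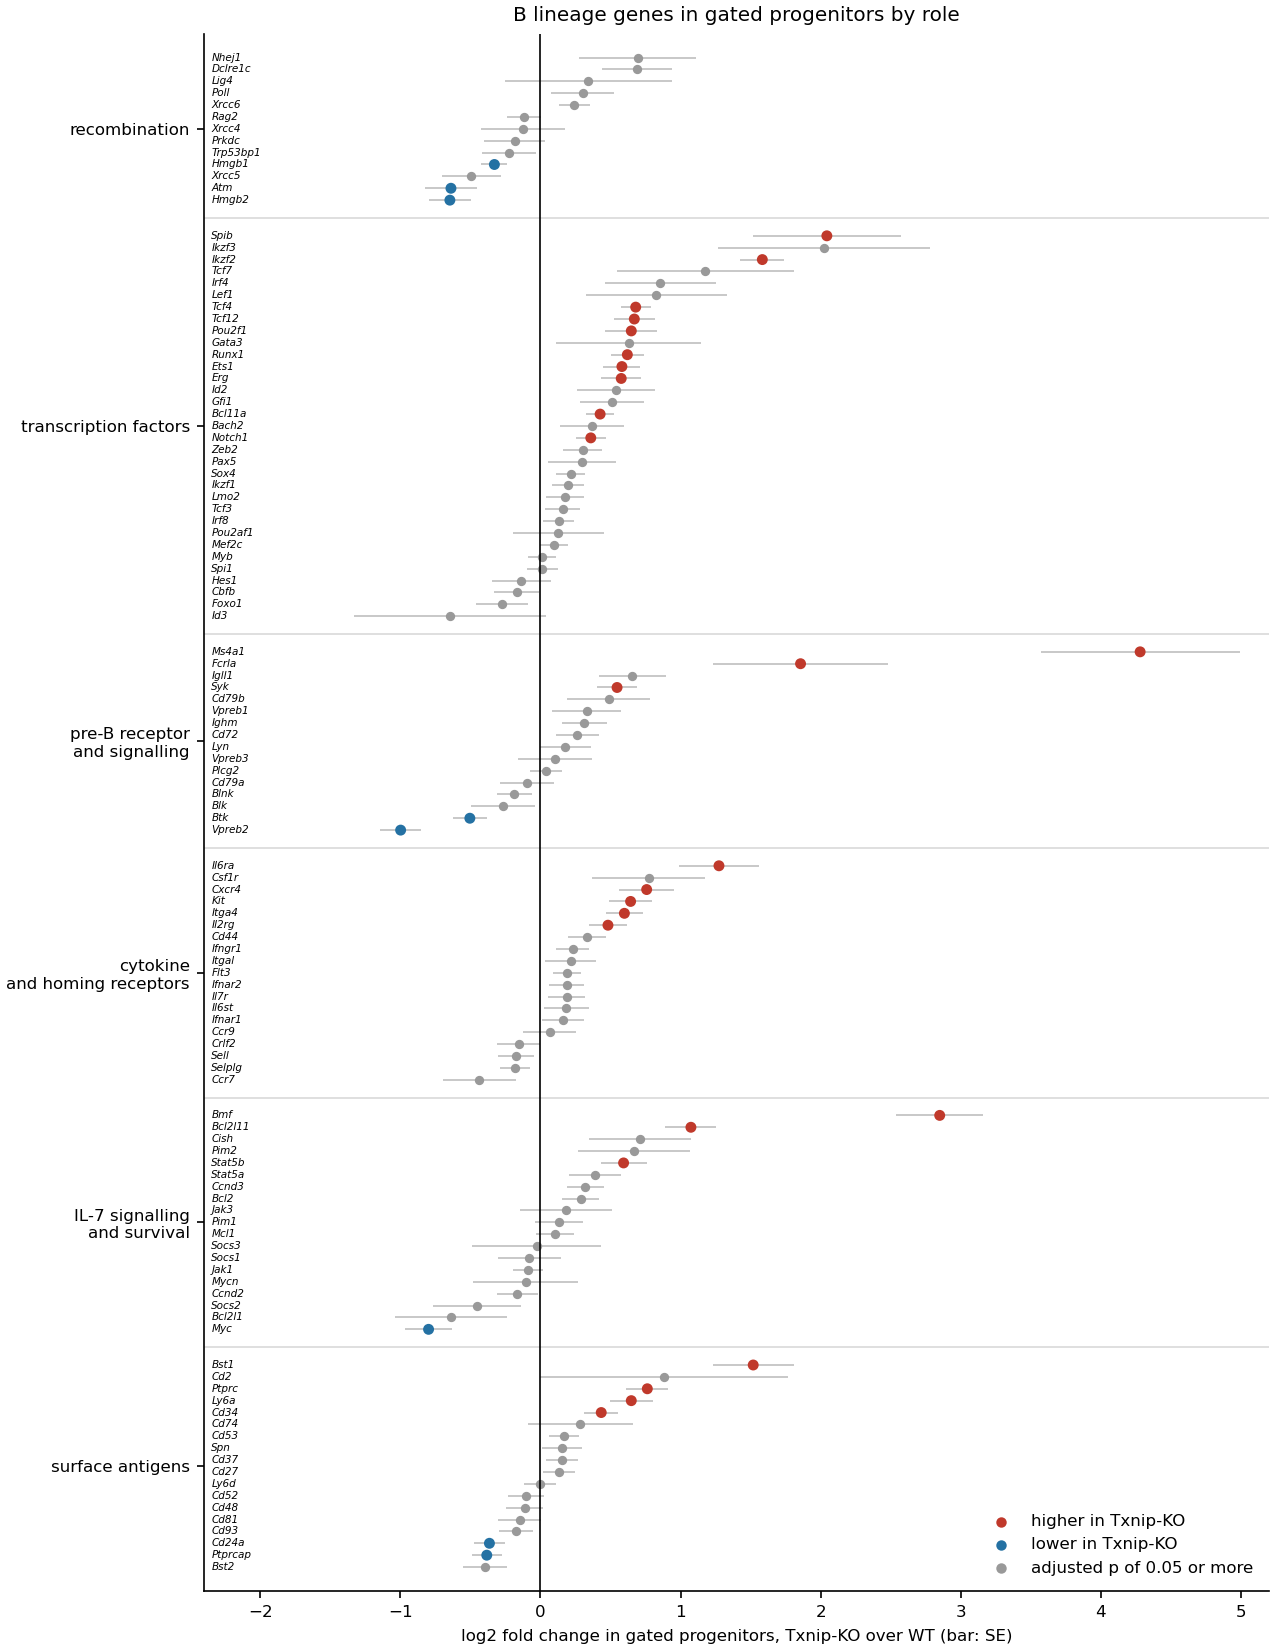
Log2 fold change of Txnip-KO over WT in gated progenitors for the B-lineage genes by role, without the genes of the rule; bars are SE. Coloured points passed the adjusted p of 0.05. Rises lead among transcription factors and receptors, while recombination genes hold 3 falls and 0 rises. Of all genes tested 8.78% rose and 10.8% fell.

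The marker gene Myl10, which the rule did not read, was at 201, 513 and 564 CPM in Txnip-KO 1, 2 and 3, and at 667, 745 and 712 CPM in WT (-0.65, SE 0.20; adjusted p = 0.0287, edgeR quasi-likelihood test). Txnip-KO 1 was far below the rest, and without that sample the fold change was -0.40 and was still called. The call was lost without WT 1 (-0.70), WT 2 (-0.63) or WT 3 (-0.65). It was also lost by the DESeq2 Wald test (-0.71), with doublets removed (-0.50), and with the thinned gate (-0.50), the stricter gate (-0.56) or the gate without Ebf1 (-0.46). Another myosin light chain gene, Myl4, named after its values were seen, was at 80.8, 126 and 96.6 CPM in Txnip-KO and 244, 279.6 and 259 CPM in WT (-1.27, SE 0.14; adjusted p = 3.03e-05, edgeR quasi-likelihood test). Its groups lay far apart and its call held with any 1 sample left out.

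Nuclear genes of oxidative phosphorylation fell in the gated progenitors, while the other lists of energy supply went both ways. Of 74 tested nuclear genes of oxidative phosphorylation 50 fell and 0 rose, with a median of -0.41 where all genes had 0.01 and 10.8% fell. The electron carrier Cycs stood at 104.7, 115 and 126 CPM in Txnip-KO 1, 2 and 3, and at 232, 238 and 240.2 CPM in WT (-1.02, SE 0.11). The ATP synthase subunit gene Atp5g1 was at 189, 275 and 211 CPM in Txnip-KO and 402, 412 and 434 CPM in WT (-0.83, SE 0.12). Each group kept to its own range in both genes. Without WT 3 the count was 22 of 74, where 561 of all 9378 genes tested fell. In cells with few or no cell cycle UMIs it was 24 of 74, where 415 of all 7929 genes fell. Atp5j2 (-0.66) and Cox7b (-0.66) also fell. Of 13 mitochondrially encoded genes, mt-Co1 rose (0.45) and mt-Atp8 (-0.75), mt-Nd2 (-0.51) and mt-Nd4 (-0.35) fell, with mt-Nd4 losing its call without WT 2 (-0.28) or WT 3 (-0.35). Their summed level, scaled by total UMIs, was 37671 to 40832 CPM in Txnip-KO and 34599.5 to 36453 CPM in WT, higher in every Txnip-KO sample.

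Of 23 genes of glucose uptake and glycolysis, 8 fell and 1 rose, with a median of -0.06. Beside Hk2, the glycolytic enzyme Tpi1 (-0.71), the lactate carrier Slc16a1 (-1.23) and the lactate dehydrogenase Ldha (-0.61) fell. Slc16a1 was at 11.97, 15.7 and 7.63 CPM in Txnip-KO 1, 2 and 3, and at 27.4, 31.5 and 31.0 CPM in WT. Of 18 genes of ketone body use and fatty acid oxidation 3 rose and 3 fell. Cpt1a, which admits fatty acids to mitochondria, was at 26.9, 55.8 and 59.7 CPM in Txnip-KO and 22.7, 15.98 and 23.4 CPM in WT (1.33, SE 0.21), and the carrier Slc25a20 also rose (1.22). Both have Txnip-KO 1 near WT and Txnip-KO 2 and 3 well above. Of 20 cholesterol synthesis genes 8 fell and 0 rose, with a median of -0.73, among them Idi1 (-1.19), Fdps (-1.11) and the sterol sensor Insig1 (-1.16); Ebp (-0.70) lost its call without Txnip-KO 2 (-0.65).

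Genes of ribosome assembly and of protein folding were mostly lower in Txnip-KO. Of 31 genes of ribosome biogenesis and growth linked to Myc, 26 fell and 0 rose, with a median of -0.70. The nucleolar protein gene Ncl stood at 790.1, 918 and 782 CPM in Txnip-KO 1, 2 and 3, and at 1359, 1322 and 1383 CPM in WT (-0.70, SE 0.10). Eif4a1, a translation factor, was at 356, 478 and 467 CPM in Txnip-KO and 802, 791 and 891 CPM in WT (-0.90, SE 0.11). Nme1 (-1.05) and Nop56 (-0.90) fell too, and all 4 passed with any 1 sample left out. In cells with few or no cell cycle UMIs 17 of 29 genes fell, where 415 of all 7929 genes tested fell. Of 22 genes of the unfolded protein and heat shock responses 16 fell and 1 rose, with a median of -0.57. The mitochondrial chaperones Hspe1 (-1.07) and Hspd1 (-1.04) and the cochaperone Dnaja1 (-0.90) led it beside Sdf2l1.

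Of 19 thioredoxin and peroxiredoxin genes 10 fell and 0 rose, with a median of -0.41. Txn1, the thioredoxin that Txnip binds, was at 218, 273 and 305 CPM in Txnip-KO 1, 2 and 3, and at 379, 367 and 405 CPM in WT (-0.50, SE 0.11). Its call was lost without WT 3 (-0.45). Prdx1 (-0.72), Glrx3 (-0.79) and Txnrd1 (-0.60) fell and kept their calls with any 1 sample left out.

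Targets of FoxO factors, which insulin and growth factor signals hold back, rose in 7 of 21 cases and fell in 0, with a median of 0.34. Tsc22d3, a gene also induced by glucocorticoids, stood at 398, 316 and 301 CPM in Txnip-KO 1, 2 and 3, and at 67.8, 70.8 and 136 CPM in WT (1.84, SE 0.21). Pik3ip1, which inhibits PI3-kinase, was at 233, 210.0 and 163 CPM in Txnip-KO and 84.0, 88.8 and 95.4 CPM in WT (1.15, SE 0.12). The groups did not overlap in either. The cyclin gene Ccng2 (0.98) rose, as did Rictor (0.71), which lost its call without Txnip-KO 2 (0.52).

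Part of the cell cycle genes fell within the gate. Of 41 DNA replication and S phase genes 22 fell and 0 rose, with a median of -0.61, and of 44 mitosis genes 11 fell and 0 rose, with a median of -0.71. Dut, which keeps uracil out of DNA, stood at 108, 186 and 172 CPM in Txnip-KO 1, 2 and 3, and at 301, 295 and 306 CPM in WT (-0.86, SE 0.13). Uhrf1 (-1.03), Ung (-1.02), Mcm3 (-0.74) and Cks1b (-0.84) fell too, and Cenpe (-1.16) and Cks2 (-0.69) lost their call without Txnip-KO 2 (-0.997) and WT 3 (-0.58) in turn. The summed level of the mitosis genes, scaled by total UMIs, was 462, 999 and 1538 CPM in Txnip-KO 1, 2 and 3, and 1479, 1520.5 and 1555 CPM in WT 1, 2 and 3, with Txnip-KO 3 inside the WT range. The count for Mitosis was 6 of 47 without Txnip-KO 1, where 1061 of all 10906 genes tested fell. Without WT 3 it was 3 of 41, where 561 of all 9378 genes fell. Of 15 genes of G1 cyclins and CDK inhibitors 3 rose and 2 fell. Cdk4 (-0.72) and the inhibitor Cdkn1a (-1.15) fell, while Cdk2 (0.57) and the inhibitor Cdkn1b (0.56) rose and lost their call without WT 3 (0.54 and 0.53).

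Dividing cells were counted at equal depth, with each cell thinned to 1000 UMIs and called dividing with at least 2 UMIs of the mitosis genes. They made up 11.8%, 14.3% and 8.64% of the gated progenitors of Txnip-KO 1, 2 and 3, and 18.9%, 16.7% and 17.1% of those of WT 1, 2 and 3. The groups did not overlap (11.6% ± 2.83 and 17.6% ± 1.17, SD, n = 3 each). The two-sided exact permutation p was 0.1, the smallest that 3 samples against 3 can give. With at least 1 UMI the difference was -4.41 percentage points with an exact permutation p of 0.5. Without the cells carrying light chain transcripts the shares were 16%, 14.6% and 9.86% in Txnip-KO 1, 2 and 3. Those of WT 1, 2 and 3 were then 19.0%, 16.9% and 16.8%, a difference of -4.08 percentage points. The 11.8% of Txnip-KO 1 is 4 of 34 cells.

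In cells with few or no cell cycle UMIs, 828 of 7929 genes passed the test. In all gated progenitors, interferon response genes had 4 of 30 lower and 0 higher, where 10.8% of all genes were lower. Among them were Isg15 (-1.47) and Ifi35 (-0.71), and all 4 lost their call when 1 sample was left out. Of 4 sex-linked genes tested in all gated progenitors 2 rose, the Y-linked Ddx3y (0.61) and Uty (0.60), which also lost their call with 1 sample left out.

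**Figure D4:**
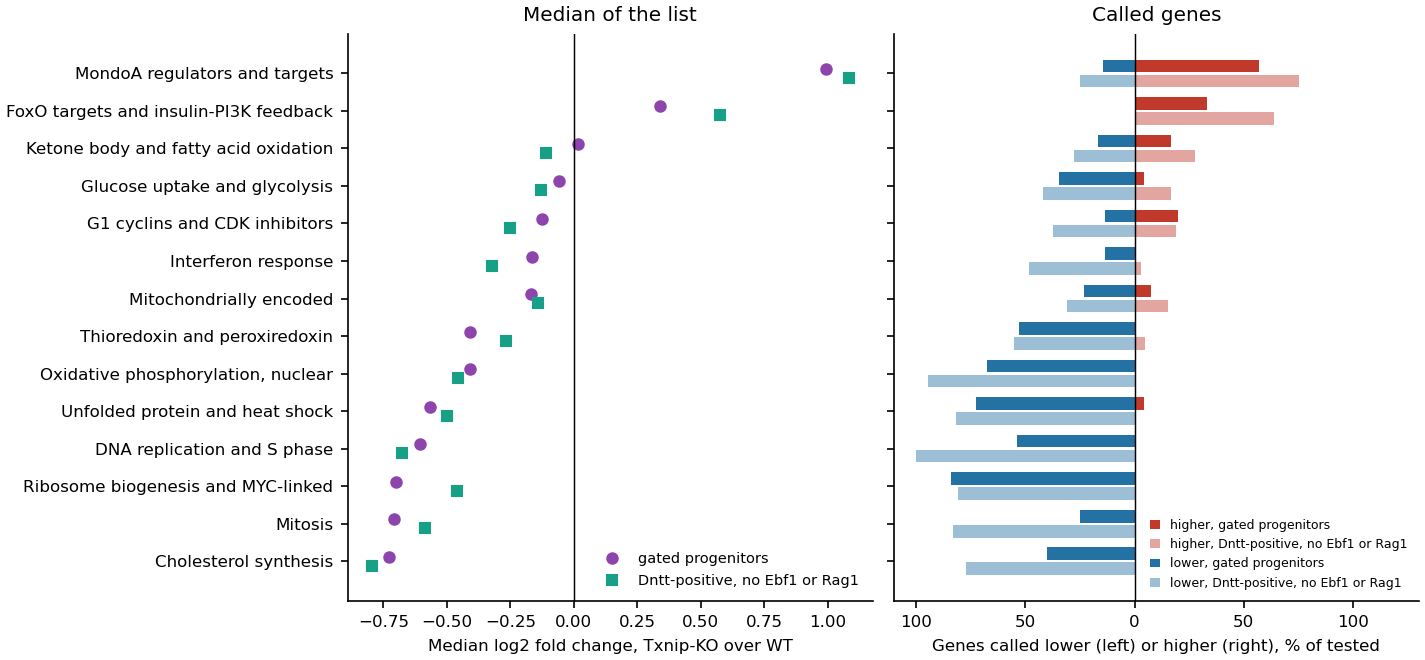
Gene lists outside the B lineage in gated progenitors and in Dntt-positive cells without Ebf1 or Rag1. Left, the median log2 fold change of Txnip-KO over WT; right, the share of tested genes called lower (left of 0) or higher (right of 0), in %. Medians of both populations lie on the same side of 0 for every list drawn but ketone body and fatty acid oxidation.

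Genes of other cell types were read as well, in short lists. Beside their counts, 8.78% of all genes tested were higher and 10.8% lower. Of the later B and plasma cell list 3 of 8 tested genes were higher and 1 lower. Of 12 NK and innate lymphoid genes 5 were higher, among them Il18r1 (1.15) and Eomes (2.18), with a summed level of 403 to 513 CPM in Txnip-KO and 243 to 387 CPM in WT. Eomes lost its call without Txnip-KO 3 (1.77) or without the light chain cells (1.54). Without those cells 2 of 11 genes of the list were higher, beside 869 of all 10124 genes tested. Of 9 plasmacytoid dendritic genes 4 were higher, among them Runx2 (0.75), and 1, Cox6a2 (-0.64), was lower; of 7 basophil and mast cell genes 2 were higher and 2 lower. Of 5 stem cell, 6 erythroid or megakaryocyte and 2 stromal genes 2, 2 and 1 were higher, and of 10 granulocyte-monocyte and 4 T cell genes 0 were called. The summed stem cell genes were at 184 to 299.7 CPM in Txnip-KO and 175 to 185 CPM in WT, with all 12 genes detected, and the stromal genes at 35.5 to 57.5 CPM in Txnip-KO and 20.8 to 22.7 CPM in WT, with Col1a1 and Col3a1 at 0. The part of these cells or of free RNA in the results above was not tested.

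Whether the genotype acts differently at this step was tested against the Dntt-positive cells without Ebf1 or Rag1, the most similar population. In those cells, which are more numerous, 5202 of 12327 genes passed (42.2%), 2488 higher (20.2%) and 2714 lower (22%), and 54% had groups that did not overlap. The test of the difference between the populations, with the sample as a block, called 35 of 12187 genes (0.287%), 4 with a higher (0.0328%) and 31 with a lower (0.254%) fold change in the gated progenitors. Leaving out 1 sample gave 11 (without WT 2) to 47 calls (without Txnip-KO 2), and leaving out the light chain cells gave 91. For most of the genes above no difference between the populations was called: Bmf had a fold change of 2.18 in the Dntt-positive cells and differed by 0.70 (adjusted p = 0.528, edgeR quasi-likelihood test).

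Myc was an exception. Its fold change was -0.80 in the gated progenitors and -0.22, not called, in the Dntt-positive cells, and the difference of -0.68 was called (adjusted p = 0.0228, edgeR quasi-likelihood test). The call of this difference was lost without WT 2 (-0.68) or WT 3 (-0.62) and held without the light chain cells. Pim1, a survival kinase induced by cytokines, had a fold change of 0.13 in gated progenitors and 0.80 in the Dntt-positive cells (difference -0.71, adjusted p = 0.0438, edgeR quasi-likelihood test), and Cd24a differed by -0.57. The differences of Pim1 and Cd24a were called without Txnip-KO 3 but lost without each of the other 5 samples. The fold changes of Ncl, Mdn1 and Rangrf were lower in the gated progenitors by differences of -0.34, -0.92 and -0.91; Mdn1 acts in ribosome assembly, and Rangrf is linked to nuclear transport. These differences were not stable: that of Ncl was called without Txnip-KO 2 but lost without each of the other samples, that of Mdn1 was called without WT 2 but lost without each of the others, and that of Rangrf was called without Txnip-KO 1 but lost without each of the others. All 3 were lost with DESeq2 size factors (-0.27, -0.86 and -0.85). Mdn1 averaged 22.9 CPM in Txnip-KO and 50.01 CPM in WT gated progenitors, against 36.8 and 41.0 CPM in the Dntt-positive cells.

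Against all other filtered barcodes 374 of 14443 genes differed in their fold change (2.59%), 232 higher (1.61%) and 142 lower (0.983%) in the gated progenitors. Leaving out Txnip-KO 2 gave 161. The light chain genes Iglc3, Iglc2 and Igkc and the B-cell gene Ms4a1 led the positive differences. Without the light chain cells Iglc3 (2.66), Iglc2 (2.44) and Ms4a1 (1.61) lost their calls, while Igkc (1.29) kept its own. Iglc3, Iglc2 and Igkc were among the genes by which those cells were removed, so their values were cut by that choice. Among the negative differences were those of Gemin5 (-1.25), a factor of RNA particle assembly, and Cad (-1.16), which starts pyrimidine synthesis. Both lost their call without Txnip-KO 2 (-1.56 and -1.13) or Txnip-KO 3 (-1.12 and -1.15). Cad averaged 7.79 CPM in Txnip-KO and 21.4 CPM in WT gated progenitors, against 24.4 and 31.6 CPM in the other barcodes.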

How the data were processed

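Sorted bone marrow cells of 3 Txnip-KO and 3 WT mouse samples were profiled with the Chromium 3' kit, per the labels' protocols. The deposited matrices hold raw UMI counts per gene and barcode. The submitters' processing notes list Cell Ranger 6.1.1, CASAVA 1.8 and Seurat 2.3.4. The sources used here give no genome build, annotation or use of strand. Of 31253 features, 31107 identifiers were found in GENCODE M21.

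The cells, lists and tests were chosen with earlier results of these data known. UMI counts were summed per sample and tested with edgeR 4.0.16 in R 4.3.3 (filterByExpr, TMM, quasi-likelihood test, Benjamini-Hochberg threshold 0.05); SE is the fold change divided by the square root of F. DESeq2 1.42.0 was an alternative. On simulated counts for the comparison of genotypes in gated progenitors, 70.8% and 73.5% of genes changed by 1 and -1 on the log2 scale were called, and 7 of 9788 unchanged genes. Scrublet, run through scanpy 1.11.5, scored doublets, taking 0.8% per 1000 barcodes. Thinning drew UMIs without replacement. Cells with few or no cell cycle UMIs had 0 mitosis and at most 2 S phase UMIs after thinning to 1000.

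Named were Txnip, the 12 largest rises and falls of called genes whose groups did not overlap and whose mean reached 10 CPM (without genes of the rule, predicted or mitochondrial genes), the called B-lineage genes, the 4 genes of smallest p in other lists and the 5 largest differences in each direction. Same-numbered samples were not paired by their labels. In the Dntt-positive cells their deviations from the group means correlated at 0.258, 0.457 and 0.329. The genotype effects given for both populations come from fits without a replicate block, which was added only as an alternative. Other alternatives were other gates, cell filters, no filter on low counts and each sample left out. A gene of the pre-B receptor list is counted with its list and is not reported or drawn here.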

Additional observations from a re-analysis of the deposited data

Results flagged for a closer look

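The genes listed here were flagged because the test of the difference itself found another genotype effect in the gated progenitors than in a second population (edgeR's quasi-likelihood test, Benjamini-Hochberg adjusted; values are differences of log2 fold changes, and CPM are TMM-scaled over both populations). Against Dntt-positive cells without Ebf1 or Rag1, the neutrophil genes Retnlg (-7.44), S100a8 (-5.85) and S100a9 (-5.42) had the largest differences. S100a9 averaged 12.3 CPM in Txnip-KO and 47.0 CPM in WT gated progenitors, against 350 CPM in Txnip-KO and 27.7 CPM in WT Dntt-positive cells. By sample, it was at 22.8, 3.07 and 11.1 CPM in Txnip-KO 1, 2 and 3 and 1.25, 119 and 20.8 CPM in WT 1, 2 and 3 in the gated progenitors, and at 559, 55.7 and 435 CPM in Txnip-KO and 4.29, 17.5 and 61.3 CPM in WT in the Dntt-positive cells. The calls of S100a8 (-5.83 and -5.62) and S100a9 (-5.52 and -5.06) were lost without Txnip-KO 1 or Txnip-KO 3, and that of Retnlg without WT 3 (-6.34). Mdn1 (-0.92), Rangrf (-0.91), Ncl (-0.34) and the ribosomal protein gene Rpl21 (-0.23) had lower fold changes in the gated progenitors. The call of Rpl21 was lost without any 1 of the 6 samples (-0.26 to -0.084) and without the light chain cells (-0.22), and those of the other 3 each without 5 of the 6 samples.

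Fcrla (3.73), Ncf1 (0.83) and Cd244a (0.55) differed upward. The call of Fcrla was lost without Txnip-KO 1 (2.995), WT 2 (3.74) or WT 3 (3.22), that of Ncf1 without Txnip-KO 2 (0.78), and that of Cd244a without each sample but Txnip-KO 1 (0.48 to 0.61). Cd244a averaged 101 CPM in Txnip-KO and 40.1 CPM in WT gated progenitors, against 60.9 and 35.1 CPM in the Dntt-positive cells. Without the cells carrying light chain transcripts Fcrla was at -0.56 and not called.

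Against all other filtered barcodes the differences were 4.74 for Iglc3, 4.42 for Iglc2, 4.39 for Ms4a1, 4.02 for Igkc and 3.10 for Spib. They were -5.64 for Ighg2b, -4.86 for Retnlg, -1.45 for Mcph1, -1.25 for Gemin5 and -1.16 for Cad. Ighg2b, a heavy chain constant region gene, averaged 24.5 CPM in Txnip-KO and 34.003 CPM in WT gated progenitors, against 12.1 CPM in Txnip-KO and 0.368 CPM in WT among the other barcodes, where Txnip-KO 1, 2 and 3 held 0.527, 35.4 and 0.444 CPM. Without the light chain cells Iglc3 (2.66), Iglc2 (2.44), Ms4a1 (1.61) and Spib (-7.57) were not called, while Igkc (1.29) was. The removal of those cells read Iglc3, Iglc2 and Igkc themselves. Without Txnip-KO 3 the calls of Iglc2 (3.52), Igkc (4.42), Gemin5 (-1.12) and Cad (-1.15) were lost. Without Txnip-KO 2 those of Ighg2b (-1.40), Mcph1 (-1.503), Gemin5 (-1.56) and Cad (-1.13) were lost, and without WT 3 that of Retnlg (-3.38).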

How the results depend on the processing

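In the gated progenitors 1980 genes were called, against 1295 by the DESeq2 Wald test, 1240 when cells were gated after thinning to 3000 UMIs, 992 with a gate without Ebf1, 828 in cells with few or no cell cycle UMIs and 190 with cells thinned to 1000 UMIs. With 1 sample left out the counts ran from 1014 to 1908. In no setting was a gene of the 1980 called in the opposite direction. The difference against Dntt-positive cells counted 35 genes, 11 with DESeq2 size factors, 155 without a filter on low counts, 91 without the light chain cells and 11 to 47 with 1 sample left out. Against all other barcodes the 374 genes became 161 to 416 with 1 sample left out. The share of gated progenitors, -2.24 as a log2 ratio, was -1.32 with the Myl10 gate and -2.75 to -1.91 with 1 sample left out. The difference in dividing cells ran from -7.35 to -4.53 percentage points with 1 sample left out. It was -4.41 and -4.46 with at least 1 and at least 3 mitosis UMIs, and -4.08 without the light chain cells. With the replicate block 1979 genes were called in the gated progenitors, where the numbers did not pair the samples (correlations of 0.041, -0.015 and 0.057), and 5741 in place of 5202 in the Dntt-positive cells, where they did; in the second population it changed no count by over 1.5 times.

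Over 2957 values of single genes under an alternative, 2547 kept direction and call, 352 lost the call, 32 gained it and 26 changed sign. The signs changed for Car1 (-0.053 by the DESeq2 Wald test, -0.66 with the gate without Ebf1, -2.93 without Txnip-KO 2 and up to 0.98 without another sample), Emcn (-0.020 by the Wald test, -1.08 without Txnip-KO 2, -0.0092 without WT 2 and up to 0.33), Fcrla (-0.48 with Dntt of at least 5, -2.27 without light chain cells and Txnip-KO 1), Hlf (-0.17) and Lat (0.040) with doublets removed, and Arrdc2 (-0.15 without Txnip-KO 2 and up to 0.75). With cells thinned to 1000 UMIs they changed for Cd24a (0.23), Cdkn1b (-0.10) and Trbc1 (-0.25). Lat was at 0.25 with the thinned gate and 0.11 with the gate without Ebf1, where Rag1 was at 0.17. Without Rag1 in the gate Trbc1 was at -0.17 and Trbc2 at -0.89, and with the stricter gate at -0.087 and -0.070. In cells with few or no cell cycle UMIs H1f5 was at 0.58, Hmgb2 at 0.20 and Trbc2 at -0.0013. In the differences between populations Fcrla (-0.56) and Spib (-7.57) changed sign without the light chain cells. The cause was not tested. The 262 Txnip-KO cells limit the precision, and genes with few UMIs in Txnip-KO 1 rest on 34 cells.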
